A study of Mus musculus with 9 samples.

Results

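The interferon response and class I antigen presentation were followed in C2C12 cells through 48 mouse genes that had been listed by symbol: transcription factors of the interferon pathway, RNA sensors, antiviral proteins and parts of the class I presentation machinery. The rule itself used no measured value, but the list was chosen with earlier results of these data known. All 48 were found among the 53700 gene rows of the count table. C2C12 is an established mouse myoblast line that fuses into myotubes when growth factors are withdrawn. The study sequenced 9 RNA libraries, with 3 in each of 3 groups. For all groups, cells on a six-well plate had been starved for 12 h in OPTI-MEM, and for the Control group they were collected at that point. The Valine group then received 0.45 mM valine for 36 h. The Val+PA group received 0.45 mM valine for 24 h and then 75 μM of the saturated fatty acid palmitic acid for 12 h; whether valine was still present during those 12 h is not given in the sources used here.

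Each group came from 1 plate of 6 wells, of which 3 were drawn at random for sequencing. There was no valine-free well at the later time, so valine, the longer time in starvation medium and the plate cannot be told apart in any comparison with Control. Palmitic acid was set against valine at the same total time but on another plate. The 3 libraries of a group were separate wells, and a p-value measures the spread between them, which may be technical. In bulk RNA, fewer cells of a kind and less RNA per cell cannot be told apart.

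Type I interferons bind the receptor pair IFNAR1 and IFNAR2, and the kinases JAK1 and TYK2 then activate STAT proteins. STAT2 and IRF9 are parts of the complex ISGF3, which binds the interferon-stimulated response element (ISRE) in promoters of induced genes; interferon gamma acts at gamma-activated sites (GAS). Induced products sense viral RNA, block viral replication, attach the ubiquitin-like protein ISG15 to other proteins, and load peptides on class I molecules, which display them to T cells. Muscle fibres and myoblasts normally carry little class I at their surface, and its rise is a known feature of inflammatory muscle disease.

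The letters of the ISRE stand in some of the promoters of these genes, and 5 are printed here because they belong to genes whose values in every library follow: of the genes with such values whose promoters hold the letters, the 4 with the largest rises in Valine, and 1 class I gene. Sequences are from RefSeq on GRCm38.p6, 5′ to 3′ on the gene's strand, and show the 250 bases before the transcription start. Capitals mark the ISRE core, searched on both strands as GAAA, any 2 bases and GAAA again, so that on the other strand it reads TTTC, any 2 bases and TTTC. The stretch of Ifit3 is chr19:34583279-34583528 on the plus strand, that of Isg15 is chr4:156200819-156201068 on the minus strand, that of Trim30a is chr7:104465194-104465443 on the minus strand, that of Gbp7 is chr3:142530086-142530335 on the plus strand and that of B2m is chr2:122147437-122147686 on the plus strand.
Ifit3: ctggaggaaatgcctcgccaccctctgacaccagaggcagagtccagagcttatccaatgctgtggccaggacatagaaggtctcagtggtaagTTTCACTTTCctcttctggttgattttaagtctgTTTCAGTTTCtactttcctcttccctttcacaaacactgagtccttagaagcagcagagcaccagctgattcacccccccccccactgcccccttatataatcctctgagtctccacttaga
Isg15: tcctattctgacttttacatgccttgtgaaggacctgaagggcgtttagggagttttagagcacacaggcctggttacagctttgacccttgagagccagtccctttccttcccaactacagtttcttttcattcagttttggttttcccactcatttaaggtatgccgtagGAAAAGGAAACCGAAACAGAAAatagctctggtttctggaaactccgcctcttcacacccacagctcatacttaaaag
Trim30a: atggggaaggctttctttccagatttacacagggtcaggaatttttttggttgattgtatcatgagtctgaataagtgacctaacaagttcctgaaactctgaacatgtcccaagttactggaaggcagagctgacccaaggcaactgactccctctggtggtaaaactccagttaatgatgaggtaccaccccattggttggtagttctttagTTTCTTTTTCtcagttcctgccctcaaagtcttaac
Gbp7: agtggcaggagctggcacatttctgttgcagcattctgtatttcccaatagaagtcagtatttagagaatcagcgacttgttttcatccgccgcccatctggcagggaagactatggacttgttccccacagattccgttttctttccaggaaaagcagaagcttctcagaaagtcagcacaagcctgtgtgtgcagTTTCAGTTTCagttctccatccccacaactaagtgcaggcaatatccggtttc
B2m: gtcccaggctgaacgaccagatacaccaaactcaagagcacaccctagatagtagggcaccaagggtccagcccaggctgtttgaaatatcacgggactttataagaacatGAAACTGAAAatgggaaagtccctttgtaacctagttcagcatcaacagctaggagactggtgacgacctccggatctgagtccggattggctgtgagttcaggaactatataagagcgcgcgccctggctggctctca

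In Ifit3 the cores began 156 and 122 bases before the start. Isg15 held 3 cores that overlap in 1 run, beginning 78, 72 and 66 bases before the start. Trim30a, Gbp7 and B2m held 1 core each, beginning 36, 53 and 139 bases before the start. The RefSeq promoter table, with windows from 250 bases before to 50 after a start, had 39 of the 48 genes; Dhx58, Ifi27, Mx1, Mx2, Oas2, Parp14, Parp9, Rtp4 and Usp18 are named only. A core stood in a window of 16 of the 39 genes (41.0%), against 3.99% of the 27025 genes of the table. By windows, of which a gene can have several, the shares were 37.0% and 3.44%. The GAS letters TTCNNNGAA, a palindrome, stood in windows of 9 of the 39 genes (23.1%), against 9.55% of all. Of 24 ISRE core matches, 18 began within 150 bases before the start. A match is a description of letters and not of a bound site.

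In the Valine libraries 38 of the 47 tested genes were higher than in Control, where 20.8% of all 18415 tested genes were called higher, and 1 was lower, where 21.1% were. The genes that rose cover each role in the list: 3 of 4 transcription factors, 3 of 4 RNA sensing genes, 12 of 15 antiviral effectors, 3 of 4 genes of ISG15 conjugation, 3 of 4 of ADP-ribosylation, 3 of 3 guanylate-binding proteins, 4 of 5 tested genes of antigen presentation and 7 of 8 other induced genes. A call is an adjusted p under 0.05 in the quasi-likelihood test of edgeR, adjusted by Benjamini-Hochberg over all tested genes. Calls in either direction reached 41.9% of all genes. The median log2 fold change was 1.17, against 0 over all tested genes, and 2 of the 47 were negative, against 50.3% of all genes. At least a 2-fold rise was called for 28 genes (9.58% of all genes) and at least a 4-fold rise for 14 (2.93%). The values of the 3 Valine libraries lay above all 3 Control libraries for 40 of the 47, against 29.7% of all tested genes.

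In Val+PA 36 of the 47 were higher than in Control (20.4% of all genes) and 1 was lower (18.8% of all genes), where 39.2% were called in either direction. The median was 1.15 and 4 of the 47 were negative (50.1% of all genes). At least a 2-fold rise was called for 26 (9.11% of all genes) and at least a 4-fold rise for 12 (2.65%), and 37 of the 47 lay above all Control libraries (23.5%). These comparisons share the Control libraries, so their values are set side by side and are not independent of each other. Between Val+PA and Valine 0 of the 47 genes and 0.0% of all genes were called; the lowest adjusted p over all genes was 0.168 in edgeR, and 10 of the 47 had an unadjusted p under 0.05, against 13.2% of all genes.

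**Figure D1:**
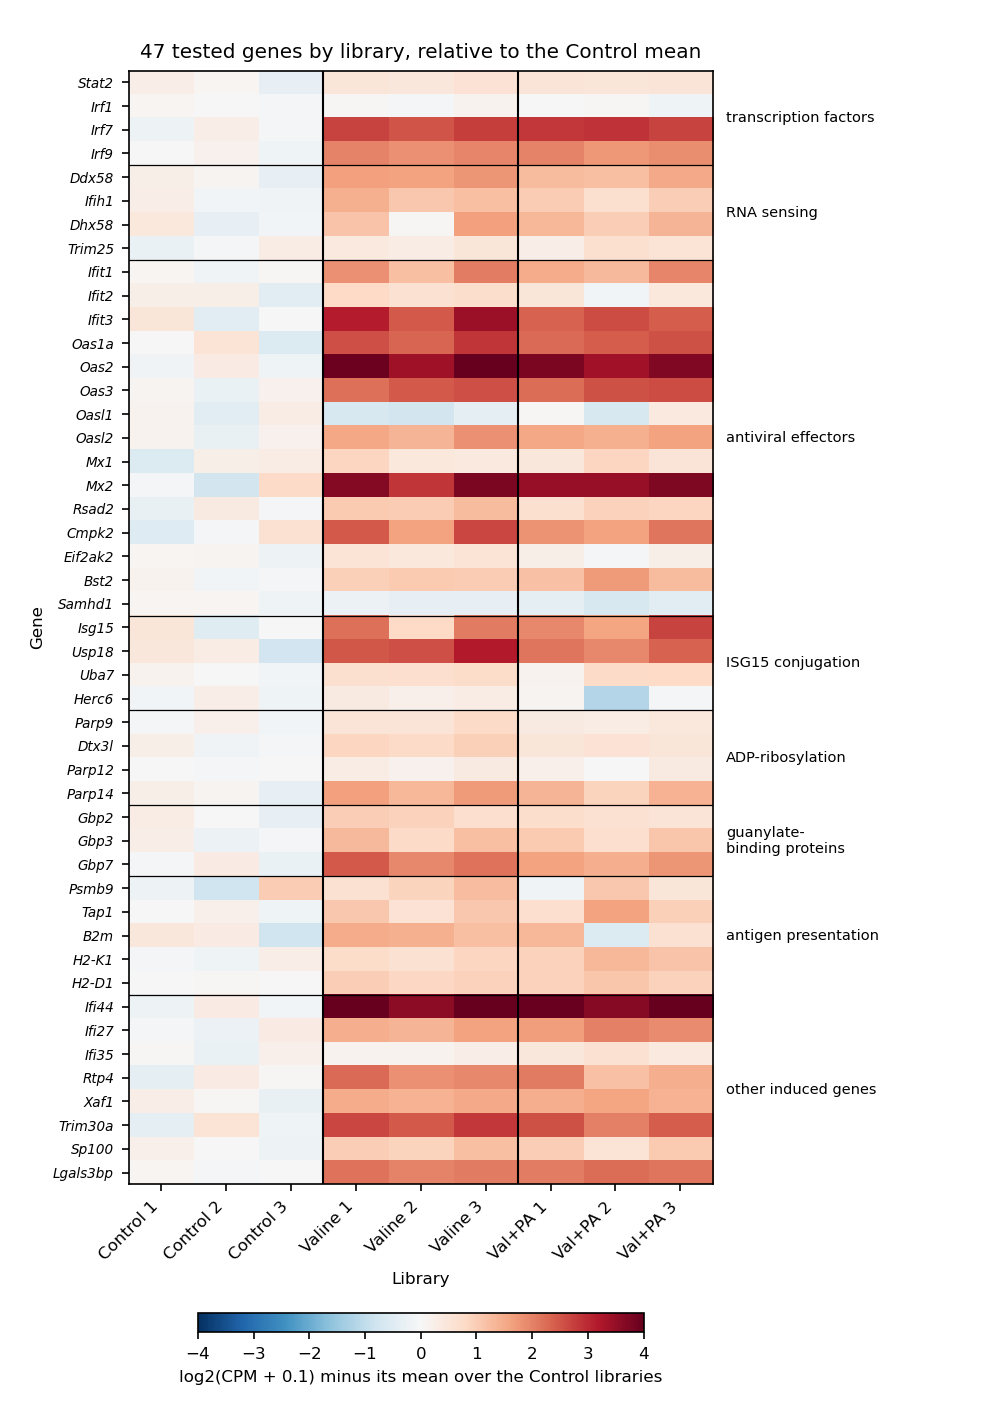
Colours give, for 47 genes (rows, by role) in 9 libraries (columns), log2 of CPM (counts scaled to a common library size) plus 0.1 minus the mean of the 3 Control libraries; the colour scale ends at 4 in both directions. Nearly all rows turn red in the Valine and Val+PA libraries, most strongly Ifi44, Oas2 and Mx2, while Irf1, Oasl1, Herc6 and Samhd1 do not.

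Depth was 26750226 to 35976589 counts per library, and 1 count was worth 0.0271 to 0.0402 CPM. Of 12 myoblast and myotube markers, Des, Itga7 and Cdh15 were the highest, each at 134 CPM or more in every library. The rest were lower, with Myod1 at 6.18 to 12.3 CPM and Ckm, the lowest, at 0.0 to 0.704 CPM. The fibroblast markers Col3a1 (778 to 2340 CPM) and Ly6a (341 to 1640 CPM) were also abundant, whereas Thy1 reached at most 0.124 CPM. The identity of the cells therefore rests on their labels. Of 12 immune cell markers 10 stayed under 1 CPM in every library, among them Itgam, which had no count; their summed level, mostly Cd14 and Cd68, was 13.7 to 14.9 CPM in Control, 16.1 to 17.1 in Valine and 21.4 to 25.6 in Val+PA. The summed level of 12 myoblast and myotube markers was 2060 to 2360 CPM in Control, 3400 to 3600 in Valine and 3240 to 5240 in Val+PA, with 9 of 12 called higher in Valine (20.8% of all genes), and that of 8 fibroblast markers 1200 to 1770, 3410 to 3510 and 3130 to 4330 CPM. Des and Itga7 made up most of the myoblast and myotube sum, and single markers moved further in Valine. Actc1 rose by 5.07, Myog by 3.82 and Myh3 by 3.13 on the log2 scale, while Myod1, Cdh15 and Pax7 were not called. Of 7 tested fibroblast markers 5 were called higher in Valine (20.8% of all genes). Among them Dcn rose by 4.71 and Lum, with 2 to 3 counts per Control library, by 6.32. Endothelial markers summed to 0.523 to 1.15, 2.52 to 3.05 and 2.36 to 3.65 CPM, and epithelial markers to under 0.74 CPM. The part of these shifts in the interferon genes was not tested. Control 3 and Val+PA 2 deviated most from their own groups over all genes. With both left out, 42 genes were higher and 1 lower in Valine, 38 higher and 1 lower in Val+PA, and 0 were called between Val+PA and Valine.

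Among the transcription factors, Irf7, the master regulator of interferon gene transcription, had the largest change. It stood at 1.03, 1.46 and 1.13 CPM in the Control libraries, at 8.36, 7.32 and 8.7 CPM in Valine and at 9.03, 9.47 and 8.22 CPM in Val+PA. All 6 treated libraries lay far above the Control libraries, and the Valine and Val+PA values interleaved. The log2 fold change was 2.75 (SE 0.18, adjusted p = 4.48e-07) in Valine and 2.88 (SE 0.18, adjusted p = 3.16e-07) in Val+PA. Irf9, the DNA-binding part of ISGF3, was at 7.21, 8.23 and 6.4 CPM in Control, 29.2, 26.0 and 28.6 in Valine, and 29.0, 24.3 and 26.5 for Val+PA. These groups were likewise apart from Control, by 1.94 (SE 0.13, adjusted p = 6.6e-07) and 1.87 (SE 0.13, adjusted p = 7.95e-07). Exons of Irf7 overlap those of Phrf1 on the opposite strand, and exons of Irf9 those of Rnf31 on the same strand. The strand setting of the counting is not given, so some reads of these genes may not be told apart.

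Stat2, the ISGF3 subunit that brings the activation domain, was at 43.2, 38.4 and 28.9 CPM in Control, 51.4, 49.5 and 54.7 in Valine, and 52.3, 50.9 and 51.7 for Val+PA. Control 3 was the lowest of all, and no treated library reached down to the Control range. The rise was 0.49 (SE 0.13) in both comparisons, with adjusted p = 0.0115 in Valine and 0.0128 in Val+PA; without Valine 3 the former missed the threshold, at an adjusted p = 0.05. Irf1, a factor induced above all by interferon gamma, stayed between 24.0 and 29.4 CPM in all 9 libraries, with overlapping groups. Its log2 fold change was 0.05 (SE 0.11, adjusted p = 0.738) in Valine and -0.04 (SE 0.11, adjusted p = 0.818) in Val+PA. Per gene length, in the deposited length-scaled signal, the order in Control was Irf1 at 13.8 ± 0.81 (SD, n = 3), Stat2 at 12.8 ± 2.8, Irf9 at 2.77 ± 0.43 and Irf7 at 0.654 ± 0.14, and in Valine Stat2 at 18.3 ± 0.84, Irf1 at 14.6 ± 0.83, Irf9 at 10.9 ± 0.65 and Irf7 at 4.51 ± 0.38. Irf1 and Stat2 did not differ beyond their spread in Control.

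Upstream of these factors, most interferon genes had no count. Of 17 ligand genes, 11, among them Ifnb1, had 0 counts in all libraries, where 3 counts, the limit that a count of 0 allows, are 0.0814 to 0.121 CPM. Another 3 had 1 to 10 counts over the 9 libraries together, and Ifng, with 12 counts in all, reached at most 5 in a library. The ligands tested were Ifna13, which fell by 2.89 on the log2 scale in Valine (SE 0.5, adjusted p = 0.00067) and was under 1 CPM in every library, and Ifnz, which was at 5.09 to 13.2 CPM, was not called and shared 60.3% of its transcript windows of 100 bases with other genes. Of 14 tested receptors, kinases and signal regulators, 6 rose and 1 fell in Valine, where 20.8% of all tested genes rose and 21.1% fell. The receptor chains Ifnar1 and Ifnar2 rose by 0.36 (SE 0.09, adjusted p = 0.00864) and 0.86 (SE 0.11, adjusted p = 5.75e-05), and Stat3, which also serves cytokines of the interleukin-6 family, by 1.01 (SE 0.12, adjusted p = 3.56e-05). Ptpn6, a phosphatase that dampens cytokine receptors, fell by 0.69 (SE 0.22, adjusted p = 0.0274).

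**Figure D2:**
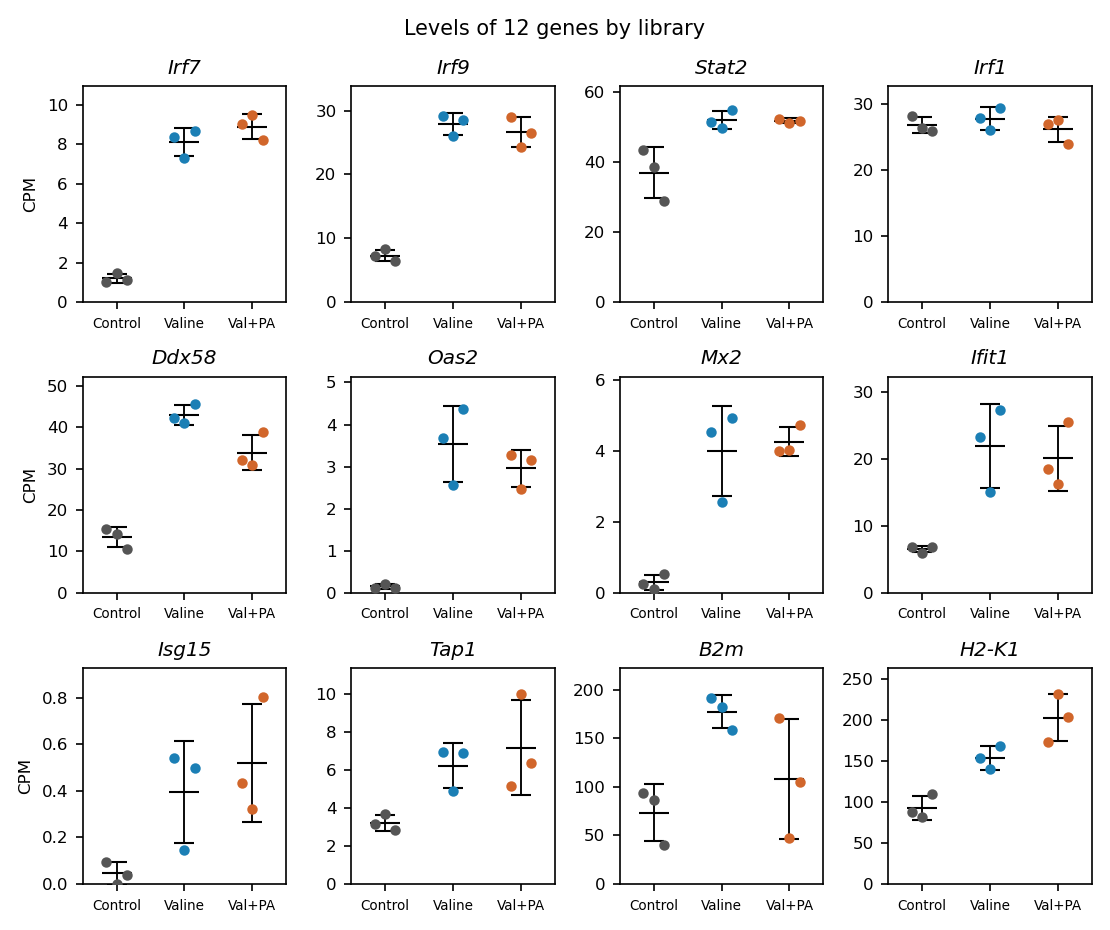
Points are libraries (CPM, linear axis from 0) of 12 genes in the 3 groups, with the mean and SD of each group. The treated libraries of Irf7, Irf9, Oas2, Mx2 and H2-K1 lie above all Control libraries, those of Irf1 overlap with them, and 1 Val+PA library of B2m falls into the Control range.

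The RNA sensing genes had a median log2 fold change of 1.21 in Valine and 1.1 in Val+PA. Ddx58, which encodes the sensor RIG-I, was at 15.5, 14.3 and 10.7 CPM in Control, 42.2, 41.0 and 45.6 in Valine, and 32.0, 30.8 and 38.7 for Val+PA. All Val+PA libraries lay between the other groups, above Control and below Valine. It rose by 1.67 (SE 0.15, adjusted p = 4.86e-06) in Valine and by 1.32 (SE 0.15, adjusted p = 2.8e-05) in Val+PA. Ifih1, the gene of the long double-stranded RNA sensor MDA5, showed the same order, at 4.93, 3.79 and 3.7 CPM in Control, 11.1, 8.86 and 9.67 in Valine, and 8.35, 6.46 and 8.15 for Val+PA. Its rises were 1.25 (SE 0.17, adjusted p = 0.000116) and 0.88 (SE 0.17, adjusted p = 0.00144). For neither gene was the difference between Val+PA and Valine called (Ddx58 -0.34, SE 0.14, adjusted p = 0.361; Ifih1 -0.37, SE 0.16, adjusted p = 0.372).

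Dhx58, the gene of the regulatory sensor LGP2, was under 2 CPM throughout and was called in Valine at an adjusted p = 0.0425 although Valine 2 lay within the Control range. The call was lost without Control 2, Control 3, Valine 1, Valine 3 or Val+PA 3, at adjusted p = 0.0554 to 0.202. In Val+PA it rose by 1.35 (SE 0.42, adjusted p = 0.023), a call lost without Control 2, Control 3, Val+PA 1 or Val+PA 3 (adjusted p = 0.0509 to 0.085). Trim25, a ubiquitin ligase for RIG-I, was not called in Valine (0.38, SE 0.15, adjusted p = 0.0632) and was called in Val+PA (0.48, SE 0.15, adjusted p = 0.0257), but the latter call was lost without Control 1, Control 2, Val+PA 2 or Val+PA 3 (adjusted p = 0.0581 to 0.11) and the former gained without Control 3 (0.54, adjusted p = 0.0115), Val+PA 1 or Val+PA 2. Of 18 tested genes of other sensors and adaptors, 7 rose (20.8% of all genes) and 5 fell (21.1% of all genes) in Valine. Ddx60, a helicase cofactor of RIG-I, rose by 2.42 (SE 0.33, adjusted p = 0.00012), whereas Cgas, the cytosolic DNA sensor, fell by 1.08 (SE 0.15, adjusted p = 0.000108). The adaptors Mavs (-0.31, SE 0.13, adjusted p = 0.086) and Sting1 (0.06, SE 0.19, adjusted p = 0.839) were not called in Valine, nor was Irf3 (-0.09, SE 0.13, adjusted p = 0.6), the factor they activate.

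Of the 15 antiviral effectors 12 rose in Valine (20.8% of all genes), 6 of them at least 4-fold (2.93%), and 10 rose in Val+PA (20.4%). Oas2, an oligoadenylate synthetase that switches on the nuclease RNase L, was at 0.128, 0.213 and 0.121 CPM in Control, 3.69, 2.56 and 4.36 in Valine, and 3.28, 2.46 and 3.15 for Val+PA. The Control libraries held 3 to 7 counts of it and the Valine libraries 88 to 149. It rose by 4.46 (SE 0.33, adjusted p = 1.27e-06) in Valine and 4.21 (SE 0.34, adjusted p = 1.98e-06) in Val+PA. Mx2 belongs to a family of dynamin-like GTPases that act on viral particles, and the annotation used here lists the mouse gene as a polymorphic pseudogene, one that is intact in some strains only. It was at 0.256, 0.121 and 0.523 CPM in Control, 4.53, 2.56 and 4.92 in Valine, and 4.01, 4.03 and 4.73 for Val+PA. For both genes Valine 2 was the lowest Valine library, and every treated library was well above Control. Mx2 rose by 3.8 (SE 0.39, adjusted p = 1.32e-05) and 3.88 (SE 0.39, adjusted p = 1.12e-05), and by 4.39 and 4.48 without Control 3.

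Ifit3, of the family that binds foreign RNA ends, was at 1.67, 0.82 and 1.17 CPM in Control, 11.2, 6.91 and 13.6 in Valine, and 6.48, 7.58 and 6.67 for Val+PA. The Val+PA libraries lay near the lower end of the Valine libraries. Its rises were 3.11 (SE 0.29, adjusted p = 5.95e-06) and 2.5 (SE 0.29, adjusted p = 3.42e-05). Because 31.7% of its transcript windows are shared exactly with Ifit3b, its counts may be split between these copies; Ifit3b itself was called higher, by 2.76 (SE 0.29, adjusted p = 1.48e-05) and 2.01 (SE 0.3, adjusted p = 0.000214). Ifit1 was at 6.86, 5.95 and 6.8 CPM in Control, 23.3, 15 and 27.3 in Valine, and 18.4, 16.3 and 25.5 for Val+PA. No treated library fell to the Control level, and the rises were 1.74 (SE 0.22, adjusted p = 7.71e-05) and 1.62 (SE 0.22, adjusted p = 0.00014).

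Bst2, or tetherin, which holds budding virions at the cell surface, had the highest length-scaled level of the effectors (20.1 over the 9 libraries). It was at 5.06, 4.22 and 4.47 CPM in Control, 8.99, 9.64 and 9.4 in Valine, and 10.3, 15 and 11.2 for Val+PA. Here the Val+PA libraries were the highest, and none of the groups overlapped. The rises were 1.03 (SE 0.16, adjusted p = 0.000357) and 1.41 (SE 0.16, adjusted p = 3.54e-05). Samhd1, which hydrolyses deoxynucleotides, was the only tested gene of the list called lower. It was at 57.7, 58.1 and 48.5 CPM in Control, 46.1, 43.1 and 43.2 in Valine, and 41.5, 34.7 and 40.6 for Val+PA, again without overlap. It fell by 0.31 in Valine (SE 0.11, adjusted p = 0.0425), a call lost without Control 1, Control 2, any 1 of the Valine libraries or Val+PA 3 (adjusted p = 0.0585 to 0.136). In Val+PA it fell by 0.49 (SE 0.11, adjusted p = 0.00432), which held under each alternative.

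The other effectors were Oas1a, Oas3, Oasl2, Rsad2, Cmpk2, Ifit2, Eif2ak2, Oasl1 and Mx1. Of these the first 7 rose in Valine (20.8% of all genes), by 0.5 (Eif2ak2, the kinase PKR that stops translation) to 2.89 (Oas3). The calls of Ifit2 and Eif2ak2 were lost without Valine 1 (adjusted p = 0.0603 and 0.0536), that of Eif2ak2 also without Valine 3 (0.0501), and neither gene was called in Val+PA (adjusted p = 0.321 and 0.469). Oas1a shares 40.9% of its windows with its copy Oas1g, so its counts may be split. Oasl1 (-0.73, SE 0.4, adjusted p = 0.169) and Mx1 (0.62, SE 0.35, adjusted p = 0.177) were not called in Valine, while their neighbours on chromosomes 5 and 16, Oasl2 and Mx2, were. Oasl2 had 2.89 to 3.64 times the counts of Oasl1 in the Control libraries and 16.2 to 16.6 times in Valine. Mx2 had 0.211 to 0.889 times the counts of Mx1 in Control and 3.83 to 7.64 times in Valine. In an exact permutation test of the log2 ratios, two-sided and chosen after the values were seen, both differences gave p = 0.1 (adjusted over 4 tests 0.1), the smallest that 3 against 3 libraries allow.

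**Figure D3:**
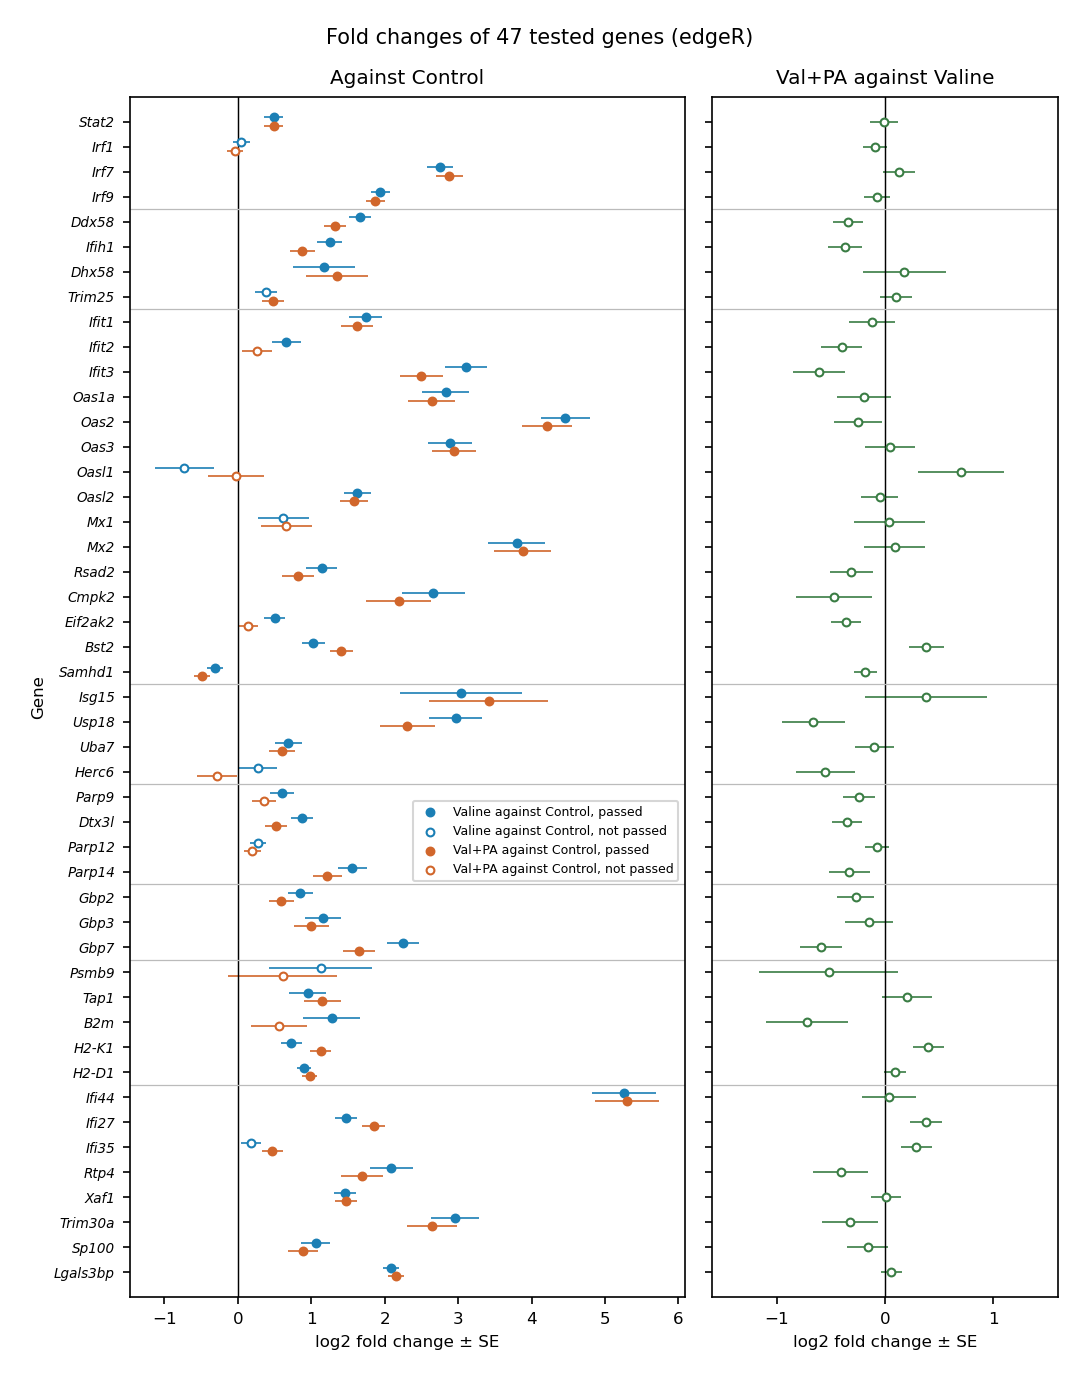
Log2 fold changes with SE of 47 genes, ordered by role, in Valine and Val+PA against Control (left) and in Val+PA against Valine (right); filled points passed an adjusted p of 0.05. The left panel spans -0.73 (Oasl1 in Valine) to 5.3 (Ifi44 in Val+PA), and the right panel spans -0.72 (B2m) to 0.7 (Oasl1) with no filled point.

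In the ISG15 pathway the modifier itself was scarce. Isg15 had 3, 0 and 1 counts in the Control libraries, 20, 5 and 17 in Valine, and 16, 10 and 26 for Val+PA, or 0.0961, 0.0 and 0.0402, then 0.543, 0.145 and 0.498, then 0.434, 0.32 and 0.803 CPM. All treated libraries were above Control, but Valine 2 was close to it. The log2 fold change was 3.04 (SE 0.83, adjusted p = 0.0117) in Valine and 3.42 (SE 0.81, adjusted p = 0.00529) in Val+PA. Its size rests on few counts: in Valine it was 4.23 without Control 1 and 2.42 without Control 2, and in Val+PA 4.62 and 2.8. The call of Isg15 in Valine held in 19 of 20 alternative fits (highest adjusted p = 0.0599). Usp18, the protease that removes ISG15 and restrains the interferon receptor, was at 0.416, 0.364 and 0.121 CPM in Control, 2.01, 2.15 and 3.25 in Valine, and 1.55, 1.31 and 1.82 for Val+PA. The groups did not overlap, with Valine the highest, and the rises were 2.97 (SE 0.36, adjusted p = 4.48e-05) and 2.31 (SE 0.37, adjusted p = 0.000379).

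Uba7, the enzyme that activates ISG15, was at 5.83, 5.19 and 4.83 CPM in Control, 8.31, 8.51 and 8.87 in Valine, and 5.8, 9.06 and 9.17 for Val+PA. Val+PA 1 was at the Control level while the other two were at that of Valine. It rose by 0.69 (SE 0.18, adjusted p = 0.00862) in Valine and by 0.6 (SE 0.18, adjusted p = 0.0203) in Val+PA. The latter call was lost without Control 2, Control 3, Val+PA 2 or Val+PA 3 (adjusted p = 0.0513 to 0.0842). Herc6, a ligase for ISG15 in the mouse, was not called in either comparison (adjusted p = 0.439 and 0.44), and its level in Val+PA 2, 2.4 CPM, was below that of every other library.

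Of the ADP-ribosylation genes, Parp14 changed most, from 4.42, 4.01 and 2.94 CPM in Control to 11.9, 9.47 and 12.3 in Valine, and 9.82, 6.98 and 9.88 for Val+PA. The treated libraries did not overlap with Control, and the rises were 1.56 (SE 0.2, adjusted p = 6.57e-05) and 1.22 (SE 0.2, adjusted p = 0.000414). Dtx3l and Parp9 encode partners in 1 ubiquitin ligase complex and lie side by side on opposite strands of chromosome 16. Dtx3l was at 4.97, 3.79 and 4.02 CPM in Control, 7.82, 7.29 and 8.29 in Valine, and 5.97, 6.34 and 6.02 for Val+PA. Parp9 was at 3.46, 4.22 and 3.38 CPM in Control, 5.27, 5.32 and 6.27 in Valine, and 4.72, 4.54 and 5.0 for Val+PA. In both, Valine was highest, Val+PA intermediate and Control lowest, without overlap. Dtx3l rose by 0.87 (SE 0.15, adjusted p = 0.000568) and 0.52 (SE 0.15, adjusted p = 0.0152), the second call being lost without Control 2 (0.44, adjusted p = 0.0727). Parp9 rose by 0.6 (SE 0.16, adjusted p = 0.00827) in Valine and was not called in Val+PA (0.36, SE 0.16, adjusted p = 0.0857). Their exons overlap on opposite strands. The strand setting of the counting is not given in the sources used here, so their reads may not be fully told apart. The same limit holds for other listed genes with an overlapping model on the opposite strand, among them Irf1, Dhx58 and Usp18.

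Parp12, a mono-ADP-ribosyltransferase with the highest length-scaled level of this role (23.3), was at 40.8, 39.3 and 40.4 CPM in Control, 48.9, 44.8 and 51.6 in Valine, and 45.8, 40.9 and 51.5 for Val+PA. The treated libraries were above Control by little, and the differences of 0.27 (SE 0.11, adjusted p = 0.0682) and 0.2 (SE 0.11, adjusted p = 0.182) were not called. Without Val+PA 2 both passed, at adjusted p = 0.02 and 0.0336.

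The guanylate-binding proteins, GTPases that attack the membranes of intracellular pathogens, all rose, and all 3 genes lie within chr3:142530342-142638008. Gbp7 was at 1.25, 1.7 and 1.09 CPM in Control, 7.71, 5.32 and 6.33 in Valine, and 4.26, 3.78 and 4.79 for Val+PA. The Val+PA libraries lay between the other groups with no overlap. It rose by 2.25 (SE 0.22, adjusted p = 8.19e-06) and 1.65 (SE 0.22, adjusted p = 9.79e-05). Gbp3 was at 1.31, 0.911 and 1.05 CPM in Control, 2.77, 1.92 and 2.61 in Valine, and 2.33, 1.79 and 2.44 for Val+PA, and Gbp2 at 7.21, 5.92 and 4.63, then 11.6, 11.2 and 9.31, then 9.49, 8.99 and 8.28 CPM. For both, every treated library was above Control. The rises of Gbp3 were 1.16 (SE 0.24, adjusted p = 0.0021) and 1.0 (SE 0.24, adjusted p = 0.00551), and those of Gbp2 0.85 (SE 0.17, adjusted p = 0.00171) and 0.59 (SE 0.17, adjusted p = 0.0163). In Gbp7 10.0% of the transcript windows are shared with other gene models, mostly Gm43802, which overlaps it on the same strand. Herc6 (10.3%) and Rtp4 (9.28%) likewise share windows with overlapping models of the same strand, Gm45193 and Gm45338.

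B2m and the class I heavy chains were among the most abundant genes of the list. Tap1 was lower, and Psmb8 and Psmb9 were scarce. B2m, the light chain of every class I molecule, had the highest length-scaled level of all 48 genes, 433 ± 44 in Valine (SD, n = 3). It was at 93.8, 86.3 and 39.7 CPM in Control, 192, 182 and 159 in Valine, and 171, 47.2 and 105 for Val+PA. Valine was above all Control libraries, whereas Val+PA spread from the Control range to the Valine range. Control 3 and Val+PA 2, the libraries that deviated most, were the lowest of their groups. The rise in Valine was 1.28 (SE 0.39, adjusted p = 0.0195). It missed the threshold without Control 3 (0.98, adjusted p = 0.0604) or Valine 1 (1.23, adjusted p = 0.0545), and passed with Control 3 and Val+PA 2 both left out (0.99, adjusted p = 1.68e-05). In Val+PA it was 0.56 (SE 0.38, adjusted p = 0.276), but 0.91 without Val+PA 2 (adjusted p = 0.0319) and 0.62 without both (adjusted p = 0.0025).

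The class I heavy chains moved with less scatter. H2-K1 was at 87.5, 81.5 and 110 CPM in Control, 154, 140 and 169 in Valine, and 174, 232 and 204 for Val+PA. H2-D1 was at 94.3, 97.8 and 93.4 CPM in Control, 186, 167 and 179 in Valine, and 179, 207 and 179 for Val+PA. For H2-K1 the groups were ordered Control, Valine, Val+PA without overlap, and for H2-D1 the treated groups overlapped with each other. H2-K1 rose by 0.73 (SE 0.14, adjusted p = 0.0013) in Valine and 1.13 (SE 0.14, adjusted p = 6.13e-05) in Val+PA, and H2-D1 by 0.9 (SE 0.1, adjusted p = 1.93e-05) and 0.98 (SE 0.1, adjusted p = 9.64e-06). The line comes from the C3H strain, whose class I alleles differ from those of the reference genome, which can lower the counts of these genes in all groups; this was not tested.

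Tap1, a subunit of the transporter that brings peptides to class I, was at 3.14, 3.67 and 2.86 CPM in Control, 6.95, 4.88 and 6.91 in Valine, and 5.18, 10.0 and 6.36 for Val+PA. Treated libraries were above Control in every case, with Val+PA 2 the highest. It rose by 0.95 (SE 0.25, adjusted p = 0.00862) and 1.15 (SE 0.25, adjusted p = 0.0029). The immunoproteasome subunits, by contrast, were barely detected. Psmb8 counts were 6, 0 and 3 in the Control libraries, 6, 6 and 13 under valine alone and 4, 4 and 9 in Val+PA, and it did not reach the level needed for testing. Psmb9 was at 0.0961, 0.0304 and 0.362 CPM in Control, 0.244, 0.32 and 0.439 in Valine, and 0.108, 0.384 and 0.216 for Val+PA. Control 3 lay within the range of the treated libraries, and the gene was not called (1.13, SE 0.7, adjusted p = 0.219 in Valine; 0.61, SE 0.74, adjusted p = 0.547 in Val+PA). Without Control 3 it was called in Valine (2.35, adjusted p = 0.0324). Psmb9 overlaps Tap1 on the opposite strand, so its few reads may belong to Tap1.

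These subunits replace catalytic subunits of the constitutive proteasome, whose genes could be compared with them per length. In the length-scaled signal Psmb5 was at 90.0 to 172 and its replacement Psmb8 at 0.0 to 0.235 over the 9 libraries. Psmb6 was at 218 to 292 and Psmb9 at 0.017 to 0.25. The third pair was closer, with Psmb7 at 40.5 to 69.1 and Psmb10 at 6.23 to 21.5. Psmb10 did not rise with the other genes: it was at 11.3, 10.2 and 18.5 CPM in Control, 5.1, 6.42 and 5.1 in Valine, and 5.97, 7.62 and 6.92 for Val+PA. It fell by 1.26 (SE 0.22, adjusted p = 0.000648) in Valine and by 0.96 (SE 0.22, adjusted p = 0.00382) in Val+PA. Control 3 was its highest Control library. Psmb5 and Psmb6 were also highest there among the Control libraries, and Psmb7 was lowest. The 3 constitutive genes had negative log2 fold changes in Valine too, from -0.56 to -0.19, and Psmb5 alone was called lower (21.1% of all genes). In Val+PA they ran from -0.3 to 0.04 and none was called.

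**Figure D4:**
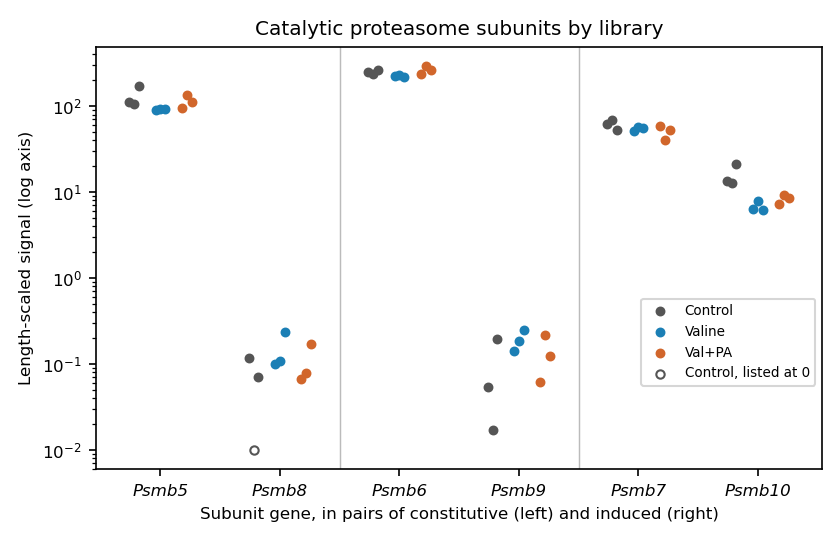
Length-scaled signal (log axis) of the catalytic proteasome subunits in each library, in pairs of a constitutive subunit and its inducible replacement; the open point marks 1 Control library of Psmb8 listed at 0, drawn at the foot of the axis. Psmb8 and Psmb9 lie at or below 0.25 in every library, whereas Psmb5 and Psmb6 lie at 90.0 or above and Psmb10 is lower in treated than in Control libraries.

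Of 21 further tested genes of class I presentation, 11 rose in Valine, against 20.8% of all genes, and 4 fell, a share near the 21.1% of all genes. The largest rise was that of Mr1, which presents microbial metabolites, by 1.66 (SE 0.19, adjusted p = 3.78e-05), and the largest fall that of Psmb10. Nlrc5, the transactivator of class I genes, rose by 1.15 (SE 0.13, adjusted p = 3.84e-05), and the non-classical class I gene H2-T23 by 1.43 (SE 0.16, adjusted p = 2.37e-05), while Calr, a chaperone of the peptide-loading complex, fell by 1.04 (SE 0.12, adjusted p = 3.22e-05). Nlrc5, H2-T23 and Calr were named after their values were seen. Of 10 class II genes, 6 did not reach the level for testing, among them H2-Aa, H2-Ab1 and Cd86, which had no count. Of the 4 tested, 2 rose in Valine (20.8% of all genes) and 2 in Val+PA (20.4% of all genes), and 0 fell. Cd74, the invariant chain, rose by 2.36 (SE 0.46, adjusted p = 0.0014), from 0.032 to 0.243 CPM in Control to 0.814 to 0.967 in Valine.

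The remaining members are a mixed set of induced genes. Of these, 7 of 8 rose in Valine (20.8% of all genes) and 8 of 8 in Val+PA (20.4%). Ifi44 had the largest change of all 47, from 1, 3 and 1 counts in Control libraries to 98, 59 and 85 under valine alone and 83, 56 and 98 with palmitic acid added. In CPM these are 0.032, 0.0911 and 0.0402, then 2.66, 1.71 and 2.49, then 2.25, 1.79 and 3.03. Every treated library held many times the Control level. The log2 fold change was 5.26 (SE 0.44, adjusted p = 2.76e-06) and 5.3 (SE 0.44, adjusted p = 2.38e-06), or 5.86 and 5.9 without Control 2; its size rests on 1 to 3 counts per Control library. Trim30a, a mouse ubiquitin ligase that restrains signalling from Toll-like receptors, was at 0.16, 0.395 and 0.201 CPM in Control, 2.04, 1.74 and 2.31 in Valine, and 1.87, 1.28 and 1.7 for Val+PA. Its treated libraries were all above Control, by 2.96 (SE 0.33, adjusted p = 2.65e-05) and 2.64 (SE 0.34, adjusted p = 7.47e-05).

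Rtp4, a chaperone of membrane receptors, was at 0.705, 1.21 and 0.966 CPM in Control, 4.94, 3.57 and 3.87 in Valine, and 4.29, 2.24 and 2.78 for Val+PA. Ifi27, which had the highest length-scaled level of this set (113), was at 30.0, 26.9 and 40.2 CPM in Control, 87.9, 82.3 and 98.3 in Valine, and 101, 130 and 118 for Val+PA. Both were above Control in every treated library, and Ifi27 was higher in each Val+PA library than in any Valine library. Rtp4 rose by 2.09 (SE 0.29, adjusted p = 0.000124) and 1.69 (SE 0.29, adjusted p = 0.000665), and Ifi27 by 1.47 (SE 0.15, adjusted p = 1.54e-05) and 1.85 (SE 0.16, adjusted p = 2.73e-06). Lgals3bp, a secreted glycoprotein, had the smallest adjusted p of the 47 genes in both comparisons, with rises of 2.09 (SE 0.11, adjusted p = 1.04e-07) and 2.15 (SE 0.11, adjusted p = 1e-07). Xaf1, a partner of the apoptosis inhibitor XIAP, rose by 1.46 and 1.47 (SE 0.15 in both), and Sp100, a part of nuclear bodies, by 1.06 and 0.89 (SE 0.2 in both). Ifi35 was the exception in Valine (0.18, SE 0.14, adjusted p = 0.323); its call in Val+PA (0.47, SE 0.14, adjusted p = 0.0166) was lost without Control 2 (0.35, adjusted p = 0.0818).

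Set against the promoters, the 16 genes with an ISRE core in a RefSeq window were all called higher in Valine (20.8% of all genes). Their log2 fold changes were 0.49 (Stat2) to 3.11 (Ifit3), with a median of 1.48. Of the 22 tested genes whose windows lacked the letters, 14 were called higher (20.8% of all genes) and 1 lower (21.1%). Their median was 0.88 and their range -0.73 (Oasl1) to 5.26 (Ifi44). Irf7, Irf9 and Ifi44 are in this second set. Both sets come from the list of interferon genes, and calls of other genes that hold the core were not counted. The difference between the sets was not tested, and absence of these letters from the window says nothing of other sites.

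Genes outside the 48 that are known to be interferon-induced were read from a separate list. Of 44 tested, 26 rose and 3 fell in Valine (20.8% and 21.1% of all genes), and 22 rose and 4 fell in Val+PA (20.4% and 18.8% of all genes), with a median of 0.54 and 0.55. The immunity-related GTPase Iigp1 rose most in Valine, by 4.18 (SE 0.41, adjusted p = 8.62e-06), and Slfn9 fell most, by 1.51 (SE 0.13, adjusted p = 4.68e-06). Within the GTPase family, Irgm2 rose by 3.34 (SE 0.16, adjusted p = 6.97e-08) and Igtp by 2.86 (SE 0.24, adjusted p = 2.76e-06), while Irgm1 was at 44 to 56.4 CPM in Control and 41.8 to 45 in Valine (-0.18, SE 0.12, adjusted p = 0.242). Cxcl10, a chemokine of the gamma response, was under 1 CPM in every library and not called (0.27, SE 0.44, adjusted p = 0.653). Irgm2, Igtp, Irgm1 and Cxcl10 were picked after their values were seen.

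Between Val+PA and Valine, 30 of the 47 genes had a negative and 17 a positive log2 fold change, where 49.3% of all genes were negative, and the median was -0.12 against 0. The Val+PA values lay below all Valine values for 11 genes (12.0% of all genes) and above for 4 (12.6% of all genes), namely Bst2, H2-K1, Ifi27 and Ifi35. The smallest p belonged to Gbp7 (-0.59, SE 0.19, unadjusted p = 0.00984, adjusted p = 0.321 in edgeR), then H2-K1 (0.4, SE 0.14, adjusted p = 0.329), Eif2ak2 (-0.36, SE 0.14, adjusted p = 0.345), Ifi27 (0.38, SE 0.15, adjusted p = 0.348) and Ifit3 (-0.61, SE 0.24, adjusted p = 0.353). The 4 ADP-ribosylation genes and the 3 guanylate-binding genes were all negative, by medians of -0.29 and -0.27, and the 5 tested antigen presentation genes had a median of 0.09. None of these differences passed the threshold, which does not show that the groups were alike.

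**Figure D5:**
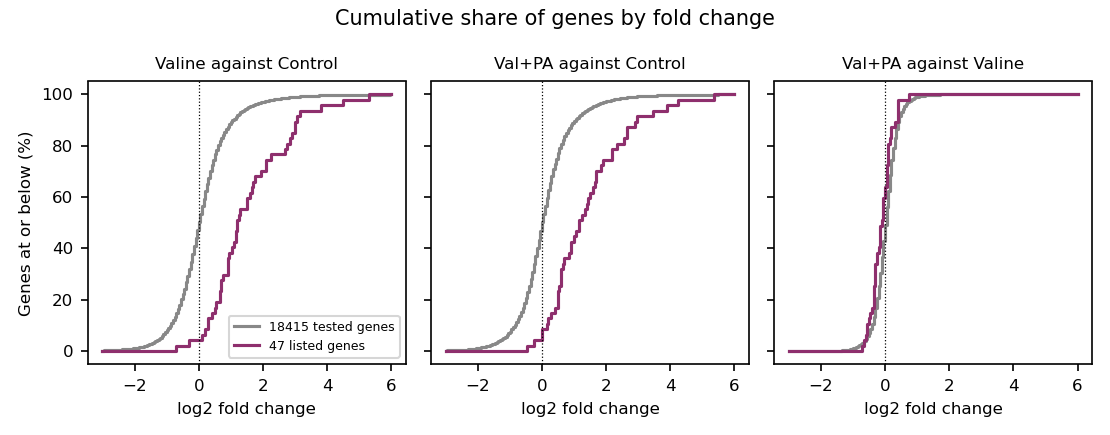
Cumulative share of genes (%) by log2 fold change in the 3 comparisons, for the 47 listed genes and for all 18415 tested genes. Against Control the listed genes lie to the right of all genes, with medians of 1.17 and 1.15 against 0, and between Val+PA and Valine they lie slightly to the left, with a median of -0.12.

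Within the Valine group, Valine 2 was the lowest of the 3 libraries for 38 of 47 genes, where it was the lowest for 32.0% of all genes, and its median difference from the mean of the other two was -0.18 on the log2 scale. Valine 3 was the highest for 29. In Val+PA, Val+PA 2 was the lowest for 26 (39.4% of all genes) and the highest for 16. The shares of all genes for which these libraries were the highest were not computed, so those counts are description only. In Control, Control 3 was the lowest for 22, near its share of 40.8% of all genes. The listed genes are measured in the same libraries and are not independent of each other. The median relative to the Control mean over the 47 genes was 1.02 in Valine 2, against 1.28 and 1.24 in Valine 1 and Valine 3, and -0.07 to 0.07 in the Control libraries.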

How the data were processed

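RNA of 9 libraries, 3 each of Control, Valine and Val+PA, was sequenced, and each library was grouped by its title. Libraries were made from total RNA and read as paired ends, per the labels' protocols. One deposited table gives raw read counts for each Ensembl gene and library. The submitters' processing notes name HISAT2, featureCounts, DESeq2 and GRCm38, with no tool versions. The deposited normalized signal, made by the authors, equals count times a gene factor times a library factor over 5925 genes checked (largest log2 residual 7.83e-05). The gene factor followed exon length, within 10% of the median ratio for 99.4% of 11257 genes, so this length-scaled signal served to compare genes. The Val+PA columns carry a shortened code and were matched by it.

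Symbols came from GENCODE M21, which named 52093 of 53700 rows (97.0%). Library totals were 26750226 to 35976589. edgeR 4.0.16 (filterByExpr, TMM, quasi-likelihood test, all 9 libraries in 1 fit with group as the only term, 6 residual degrees of freedom, two-sided) tested 18415 genes, 47 of the 48 listed. The SE is the absolute log2 fold change over the square root of F. CPM are counts over the TMM-scaled library size. The fit was tested on simulated counts with known changes. Transcripts were searched for windows of 100 bases shared with other genes, and promoters for the spelled motifs.

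The listed genes, roles, marker and pathway lists were chosen with earlier results of these data known. Library values are printed for up to 3 genes per role with the largest change among called genes of at least 1 CPM, for the gene with the highest length-scaled level of each role, and for Stat2, Irf1, Irf7, Irf9, Isg15, Ifit1, B2m, H2-K1, H2-D1, Tap1, Psmb8 and Psmb9. Values of Samhd1 and Ifi44 beyond this rule were added after they were seen. Of each pathway list the largest called rise and fall in Valine are named, beside genes said to be chosen later and the receptor, adaptor and proteasome genes set beside the listed ones. Alternatives were DESeq2 1.42.0, limma-voom (limma 3.58.1), other scaling (upper-quartile or RLE factors, or library size alone), other filters (none, or 1 CPM in 3 libraries), a fit of the 2 compared groups, a replicate block, omission of each library in turn or of Control 3 with Val+PA 2, limma on log2 of the signal plus 1 or 0.1, and a threshold of 0.01. Libraries of a group were compared by a chi-square of their counts, and none agreed within sampling noise.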

Additional observations from a re-analysis of the deposited data

How the results depend on the processing

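Over the alternatives, the genes called higher numbered 32 to 42 in Valine and 29 to 38 in Val+PA (34 to 40 and 31 to 36 when 1 library was left out). At the threshold of 0.05, the Valine calls of Tap1 and Uba7 each held in 21 of 22 alternative fits (highest adjusted p = 0.0714 and 0.0561). That of B2m held in 19 of 22 (0.0879), and the Val+PA call of Rsad2 in 21 of 22 (0.0535). The single lower gene in Valine became 0 with library size alone, upper-quartile factors, the signal settings, no filter and a threshold of 0.01, and 0 to 1 when 1 library was left out; in Val+PA it stayed at 1. All genes called in Valine numbered 5092 at a threshold of 0.01. Between Val+PA and Valine, all genes called numbered 212 with DESeq2, 763 with no filter, 604 without Control 3 and Val+PA 2, and 2 on log2 signal plus 1 with no filter; 2 listed genes, B2m and Ifit3, were called lower with no filter only. The cause was not tested.

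With a replicate block, 39 genes were higher and 0 lower in Valine, and 36 higher and 1 lower in Val+PA. The numbers only name wells, and same-numbered libraries deviated with correlations of -0.272 to 0.158, so they do not pair the libraries; no other such call changed.

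Signs turned for genes near 0. Irf1 in Val+PA against Control was 0.01 with upper-quartile factors and 0.00 with library size alone, and ran from -0.07 to 0.03 (without Val+PA 3) when 1 library was left out. In Val+PA against Valine, leaving out 1 library moved Mx2 from -0.15 (without Valine 2) to 0.26, Ifi44 from -0.17 (Val+PA 3; -0.13 for Valine 2) to 0.20, Isg15 from -0.06 (Val+PA 3; -0.01 for Valine 2) to 0.68, Stat2 from -0.04 to 0.03 (Valine 3; 0.00 for Val+PA 2), Ifit1 from -0.33 to 0.07 (Valine 3; 0.01 for Val+PA 2), Uba7 from -0.21 to 0.09 (Val+PA 1), Parp12 from -0.16 to 0.01 (Val+PA 2) and Tap1 from -0.12 (Val+PA 2) to 0.39. With Control 3 and Val+PA 2 both left out, Stat2, Parp12 and Ifit1 were 0.00 and Tap1 -0.12. Over all alternatives, signs also turned for Oasl1 (-0.31 to 0.41) and Herc6 (-0.52 to 0.02) in Val+PA against Control, and for Dhx58 (-0.17 to 0.6), Mx1 (-0.11 to 0.23), Oas3 (-0.06 to 0.16), Oasl2 (-0.15 to 0.08) and Xaf1 (-0.05 to 0.06) in Val+PA against Valine; none of these was called in any. Depth limits Isg15, Ifi44, Psmb8, Psmb9, Oas2 and Oas3, whose Control libraries held 0 to 9 counts. Control counts were also low for, among others, Cmpk2 (4 to 10), Mx2 (4 to 13), Trim30a (5 to 13), Usp18 (3 to 13) and Oas1a (4 to 15). On the signal scales, which shrink low genes, Ifi44 ran down to 0.8, Oas2 to 1.3, Isg15 to 0.9, Oas3 to 0.46 and Cmpk2 to 0.65.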

Other observations

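Several of the listed genes sit beside each other in the genome, and changes of neighbours in Valine were close in some clusters and far apart in others. In the cluster of Ifit2, Ifit3 and Ifit1 on chromosome 19 the log2 fold changes were 0.66, 3.11 and 1.74. Oas2, Oas3 and Oas1a on chromosome 5 changed by 4.46, 2.89 and 2.83, the last 2 differing by less than their SE. Rsad2, which encodes viperin, and Cmpk2, its neighbour on chromosome 12, changed by 1.14 and 2.66. On chromosome 17 the values of H2-K1, Tap1 and Psmb9 were 0.73, 0.95 and 1.13, the last not called, and on chromosome 3 those of Gbp7, Gbp3 and Gbp2 were 2.25, 1.16 and 0.85. Differences between neighbours were not tested apart from the ratios of Mx2 to Mx1 and of Oasl2 to Oasl1. Groups of 3 libraries are too small for a test of single outlying libraries.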
